A study of Rattus norvegicus with 6 samples.

Results

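Epyc, which codes for epiphycan, and 9 other genes of the small leucine-rich proteoglycan family (Lum, Dcn, Bgn, Fmod, Ogn, Aspn, Prelp, Omd and Kera) were examined in RNA-seq libraries of rat cardiomyocytes. These 10 genes were taken by gene name from the 43035 rows of the count table, together with 4 unannotated rows that overlapped Dcn, Fmod, Ogn or Aspn on the same strand. The family was chosen by the differences already seen between these same libraries, with Epyc as its leading gene. The level differences of its members are therefore given as a description with their errors, and the calls that the fit over all features made on them are given only as counts and support nothing. The cells were cardiomyocytes from the hearts of Sprague-Dawley rats at postnatal day 1, held in primary culture. They were transfected with scramble siRNA (si-NC) or with siRNA against the kinase DYRK1A (si-DYRK1A), and RNA was taken after 48 h, with 3 biological replicates in each group. Both groups received lipofectamine with an siRNA. The question of the comparison was how the transcriptome differed after DYRK1A knockdown.

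The libraries held 10325074 to 11921772 counts, and the scaling factors between them (TMM, from edgeR) lay between 0.988 and 1.013. The row named Dyrk1a held 0 to 3 counts in every library. An unannotated row lying over it on the same strand held 777, 919 and 968 counts with si-NC and 971, 851 and 944 with si-DYRK1A. Its log2 fold change was 0.08 (SE 0.0575, edgeR adjusted p = 0.374). A lower transcript level of the target was therefore not seen in this row for the libraries labelled si-DYRK1A. The paper reports knockdown of the kinase protein by immunoblot in primary neonatal cardiomyocytes transfected with such siRNA. Whether the protein was lower in the sequenced cultures was not tested here, and which transcripts the unannotated row counts is not known. Such unannotated rows matter for the whole table. Of the 6885 protein-coding genes that one of them covered over at least 50% of their span on the same strand, 77.2% held fewer than 10 counts in every library, against 45.4% of the 15365 other protein-coding genes. An annotated gene at or near 0 here was therefore not read as silent. Of 18 cardiomyocyte markers in the table, Mybpc3, Myh6, Myh7, Tnni3 and Myl2 were at 0 in all libraries, and an unannotated row covered each of the 5. Nppa, the atrial natriuretic peptide, was at 7557 ± 371 counts per 1000000 (CPM) in si-NC and 9782 ± 475 CPM in si-DYRK1A (mean ± SD, n = 3). The summed level of the cardiomyocyte markers, Nppa among them, was 23190 to 24130 CPM in si-NC and 26470 to 27370 CPM in si-DYRK1A. Nppa and Actc1, the latter at 9976 ± 93 and 10880 ± 192 CPM, carried most of that sum. The median log2 fold change of the fitted cardiomyocyte markers was 0.13. The summed level of 14 fibroblast markers was 22080 to 26920 CPM in si-NC and 20800 to 21650 CPM in si-DYRK1A, with Ddr2 and Pdgfra at 0 and both covered by an unannotated row. Col1a1 and Col3a1 carried most of this sum. Col1a1 was at 14340 ± 1917 and 11110 ± 196 CPM (not called, edgeR adjusted p = 0.0869), and Col3a1 at 9002 ± 486 and 9127 ± 185 CPM. The median log2 fold change of the fitted fibroblast markers was 0.004. In such bulk libraries, fewer cells of a type and less RNA per cell cannot be told apart.

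Small leucine-rich proteoglycans are secreted proteins built of leucine-rich repeats, most of which carry chondroitin, dermatan or keratan sulfate chains. They bind collagen fibrils and set their diameter and spacing, and several also bind growth factors of the TGF-beta family and cell surface receptors. By sequence they fall into classes. Decorin (Dcn), biglycan (Bgn) and asporin (Aspn) make up class I, fibromodulin (Fmod), lumican (Lum), PRELP (Prelp), keratocan (Kera) and osteomodulin (Omd) class II, and epiphycan (Epyc) and osteoglycin (Ogn) class III. In the heart they are known mainly as products of fibroblasts and other stromal cells, while epiphycan is known from growth cartilage and keratocan from the cornea.

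Dcn, Lum, Kera and Epyc lie in this order on the plus strand of chromosome 7, within 193 kb, with gaps of 37.5, 31.2 and 31.8 kb between them. The 250 bases before the annotated start of Lum, Kera and Epyc are printed because these neighbours gave very different levels in the same libraries. Whether these sequences bear on the levels was not tested. RefSeq promoters of the GRCr8 build were matched by symbol for 7 of the 10 members, and no entry was found for Dcn, Bgn and Prelp. Capitals mark each match on either strand to CANNTG, the E-box core, or to CCAAT, the CCAAT box (ATTGG on the opposite strand).

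Lum (chr7:34245456-34245705, plus strand): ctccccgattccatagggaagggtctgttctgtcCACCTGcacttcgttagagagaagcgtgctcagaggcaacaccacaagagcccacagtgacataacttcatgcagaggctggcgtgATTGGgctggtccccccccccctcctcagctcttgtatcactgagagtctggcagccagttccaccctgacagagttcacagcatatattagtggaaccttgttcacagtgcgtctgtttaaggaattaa
Kera (chr7:34283850-34284099, plus strand): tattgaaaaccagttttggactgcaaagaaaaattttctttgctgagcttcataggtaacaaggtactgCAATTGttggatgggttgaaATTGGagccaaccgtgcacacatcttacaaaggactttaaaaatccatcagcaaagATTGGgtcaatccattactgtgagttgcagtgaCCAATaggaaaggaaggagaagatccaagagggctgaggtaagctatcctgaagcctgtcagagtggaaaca
Epyc (chr7:34323082-34323331, plus strand): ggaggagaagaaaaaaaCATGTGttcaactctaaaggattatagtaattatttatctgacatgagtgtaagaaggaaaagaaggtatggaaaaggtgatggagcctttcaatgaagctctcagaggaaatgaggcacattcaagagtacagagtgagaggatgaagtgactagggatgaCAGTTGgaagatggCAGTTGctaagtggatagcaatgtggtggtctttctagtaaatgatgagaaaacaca

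The Epyc sequence held 3 matches to CANNTG, at 233 to 228, 71 to 66 and 57 to 52 bases before the start, and no match to CCAAT. The Lum sequence held 1 match to each, and Kera 1 match to CANNTG and 3 to CCAAT. Among all 33469 promoter windows of that length, 65.5% held CANNTG and 34% held CCAAT, so each match is common. None of the 3 sequences held TATAAA (12.9% of all windows), the AP-1 site TGANTCA (6.34%), GGGCGG (30.5%) or a CArG box (1.5%). GGAAA, found in 56.9% of windows, occurred 3 times before Epyc, 2 times before Kera and not before Lum. CAGAC, found in 42.9%, occurred 3 times before Lum and not before the other two. GATAA, found in 23.5% of windows, occurred 1 time, before Epyc. These are matches of letters and not binding sites.

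Of the 10 members, 6 (Epyc, Lum, Prelp, Dcn, Bgn and Aspn) passed the filter on low counts, each with at least 12 counts in every library. Fmod, Ogn, Omd and Kera held at most 4 counts in any library and were not fitted. By the edgeR fit, with p adjusted over all 15513 features at a threshold of 0.05, Epyc and Lum were called higher in si-DYRK1A, Bgn was called lower, and Dcn, Prelp and Aspn were not called. Of all features fitted, 15.2% were called, 8.03% higher and 7.19% lower. The libraries of the groups did not overlap in CPM for 4 of the 6 members (Epyc, Lum, Dcn and Bgn), which was so for 31.5% of all features fitted. Since the contrast itself chose the family, nothing is read from these counts.

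Epyc (ENSRNOG00000004717, Rnor_6.0 chr7:38897278-38934985) held 146, 143 and 150 counts with si-NC and 394, 353 and 412 counts with si-DYRK1A. In CPM these were 14, 12.1 and 12.5 against 34.7, 33.2 and 35.7. All 3 libraries labelled si-DYRK1A lay above all 3 si-NC libraries, with a gap far wider than the spread inside either group. The means were 12.9 ± 1.0 and 34.5 ± 1.21 CPM (SD, n = 3), a 2.68-fold difference, with a log2 fold change of 1.42 (SE 0.0957, 95% interval 1.23 to 1.62). Among the 8196 annotated genes whose log2 CPM averaged 1 or more, Epyc ranked 22nd by log2 fold change. Its coefficient of variation was 7.74% in si-NC and 3.52% in si-DYRK1A, where counting alone gives 8.27% and 5.09%, so its libraries varied no more than the counting of reads. No unannotated row overlapped Epyc on its strand. Per length its level stayed modest, at 6.14 ± 0.456 FPKM (counts scaled by gene length and library) in si-NC and 16.4 ± 0.562 in si-DYRK1A, the former 6535th of all rows.

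Lum (ENSRNOG00000004610, chr7:38819771-38826862) codes for lumican, a keratan sulfate proteoglycan that spaces collagen fibrils. It held 2727, 2902 and 3254 counts in si-NC and 4543, 4095 and 4432 counts in si-DYRK1A. In CPM these were 262, 245 and 272 against 400, 386 and 384, so that the groups did not overlap. The means were 259.7 ± 13.4 and 389.6 ± 8.71 CPM, a 1.5-fold difference with a log2 fold change of 0.59 (SE 0.0459, 95% interval 0.49 to 0.68). Here the libraries of si-NC varied by 5.17% where counting alone gives 1.84%. Lum and Epyc thus both stood higher in si-DYRK1A, but by different factors. Epyc stood at 5.18%, 4.76% and 4.46% of the FPKM of Lum with si-NC and at 8.39%, 8.34% and 8.99% with si-DYRK1A. Kera (ENSRNOG00000004635, chr7:38858062-38865515), which lies between them, held 0 counts in all si-NC libraries and 1, 0 and 3 counts in si-DYRK1A, too few to compare.

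**Figure D1:**
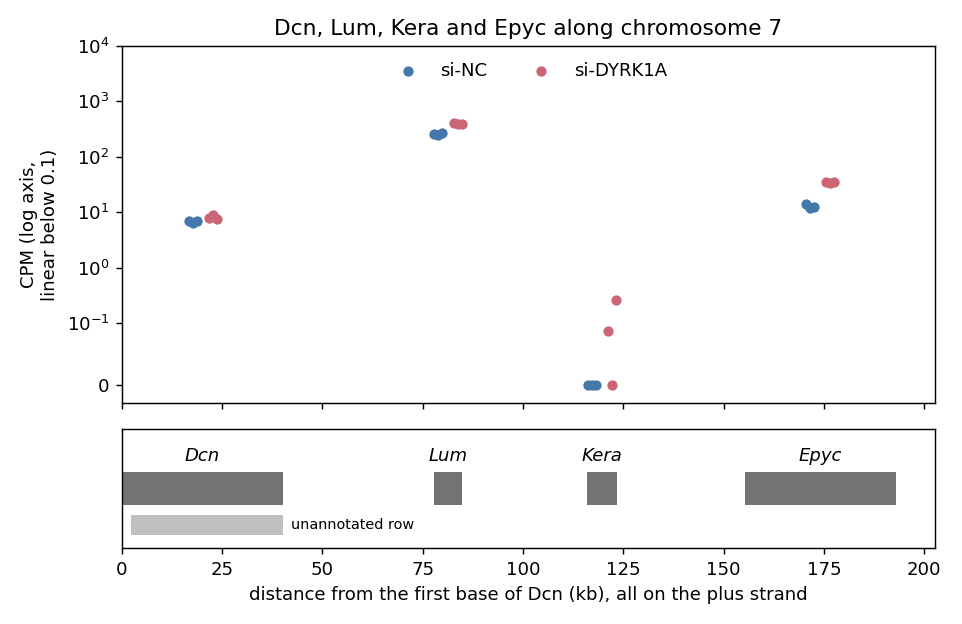
CPM of Dcn, Lum, Kera and Epyc in each library (points, upper panel, log axis that is linear below 0.1) above the span of each gene (dark bars) and of the unannotated row over Dcn (light bar), by distance in kb from the first base of Dcn. Points of one gene are spread sideways for sight only. The si-DYRK1A points lie above the si-NC points for Lum (384 to 400 against 245 to 272 CPM) and Epyc (33.2 to 35.7 against 12.1 to 14 CPM), while Kera sits at or near 0.

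Dcn (ENSRNOG00000004554, chr7:38742051-38782323) codes for decorin, a ligand of collagen, of TGF-beta and of receptor kinases. Its own row held 74, 77 and 82 counts in si-NC and 88, 95 and 89 in si-DYRK1A, or 7.10, 6.51 and 6.86 CPM against 7.74, 8.95 and 7.70 CPM. The groups did not overlap, yet the gap was small, and the log2 fold change of 0.25 (SE 0.16) had a 95% interval from -0.08 to 0.58. An unannotated row on the same strand (chr7:38744238-38782323) covered 94.6% of Dcn and held 9, 22 and 28 counts in si-NC and 31, 42 and 42 in si-DYRK1A. Its log2 fold change was 1.00 (SE 0.31, 95% interval 0.36 to 1.65). This value ran from 0.704 without si-NC replicate 1 to 1.3 without si-NC replicate 3. The row was called with all libraries, but not in 4 of the 6 fits that left out a library and not by DESeq2. With both rows summed, the libraries held 83, 99 and 110 counts against 119, 137 and 131, and the log2 fold change was 0.44 (SE 0.143, 95% interval 0.14 to 0.74). How the reads of the locus were divided between the rows is not given in the sources used here, so the level of Dcn remains uncertain.

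Bgn (ENSRNOG00000055962, chrX:157319046-157331204, minus strand) codes for biglycan, which binds collagen and, once released from matrix, Toll-like receptors. It gave 2645, 2833 and 2574 CPM in si-NC and 2373, 2348 and 2425 CPM in si-DYRK1A, so that all si-NC libraries were the higher ones. The means of 2684 ± 133.8 and 2382 ± 39.4 CPM differ by a factor of 0.888, with a log2 fold change of -0.17 (SE 0.0411, 95% interval -0.26 to -0.09). Prelp (ENSRNOG00000003120, chr13:50749514-50761355, minus strand), whose protein anchors basement membranes to collagen, gave 131, 135 and 126 CPM in si-NC and 122, 131 and 145 CPM in si-DYRK1A. Here the groups overlapped, and the log2 fold change was 0.02 with a 95% interval from -0.10 to 0.14. Fmod (ENSRNOG00000003183, chr13:50873605-50885563, plus strand), which codes for the fibril-binding fibromodulin, lies near Prelp on the other strand. It held 0, 0 and 3 counts in si-NC and 1, 0 and 0 in si-DYRK1A. The unannotated row covering all of Fmod held 2, 5 and 2 against 4, 1 and 3 counts, so no level could be compared.

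**Figure D2:**
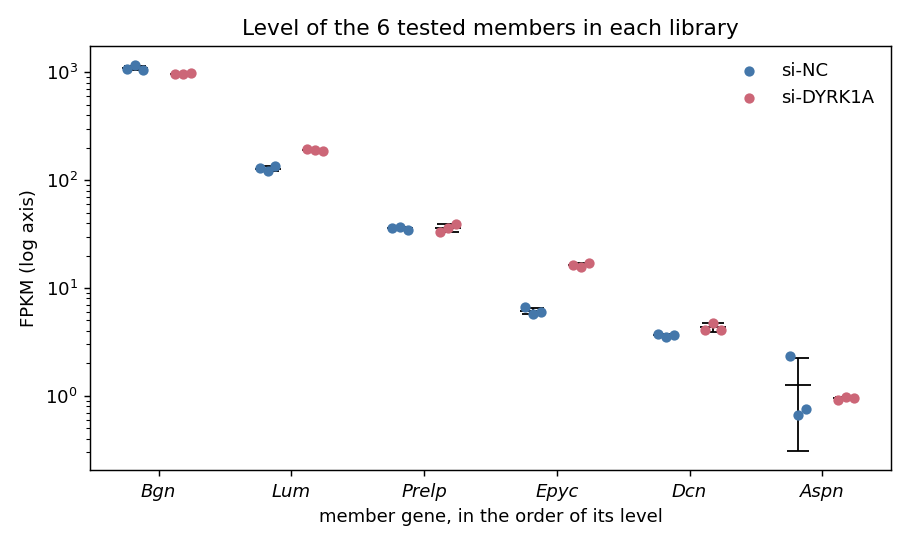
FPKM of the 6 members that passed the filter, on a log axis, with a point for each library and the mean ± SD of each group of 3 as bars, in order of level. Epyc and Lum stand higher in si-DYRK1A, Bgn slightly lower, and Aspn of si-NC spreads from 0.663 to 2.37 FPKM.

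Asporin, osteoglycin and osteomodulin sit on chromosome 17, where each had a second row under the same or a like description. Aspn (ENSRNOG00000015410, chr17:14656009-14679409, minus strand) codes for asporin, which binds collagen and TGF-beta. It held 38, 12 and 14 counts in si-NC and 16, 16 and 17 in si-DYRK1A. Only si-NC replicate 1 stood apart. The log2 fold change of -0.38 (95% interval -1.29 to 0.53) turned to 0.41 without that library. The row described as asporin-like 1 (Aspnl1, chr17:15495790-15519282) held 284, 14 and 14 counts in si-NC and 156, 11 and 7 in si-DYRK1A, so that replicate 1 of both groups was high. Its log2 fold change of -0.91 had an SE of 1.83. The RefSeq annotation of GRCr8 lists Aspnl1 as another name of Aspn, and reads of the pair may have been split between the rows.

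Ogn (ENSRNOG00000047786, chr17:15447716-15467359, minus strand) codes for osteoglycin, also called mimecan. Its row was at 0 in all 6 libraries. The unannotated row covering all of it held 31, 43 and 0 counts in si-NC and 4, 4 and 0 in si-DYRK1A, so replicate 3 was at 0 in both groups. A second row described as osteoglycin (NEWGENE_1308171, chr17:14607442-14627937) held 81, 42 and 67 counts in si-NC and 57, 25 and 29 in si-DYRK1A, groups that overlapped, with a log2 fold change of -0.76 (SE 0.353, 95% interval -1.55 to 0.03). With the 3 osteoglycin rows summed, a choice made after these values were seen, the libraries held 112, 85 and 67 counts against 61, 29 and 29. The log2 fold change of the sum was -1.14 (SE 0.334, 95% interval -1.89 to -0.38), and the groups of the sum did not overlap. After adjustment over all features the sum was not called. Omd (ENSRNOG00000039560, chr17:15475710-15484269, minus strand), which codes for osteomodulin of bone matrix, held 4, 0 and 1 counts against 0, 1 and 1, and the second osteomodulin row was at 0 throughout. The direction of asporin, osteoglycin and osteomodulin was therefore not settled by these counts.

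**Figure D3:**
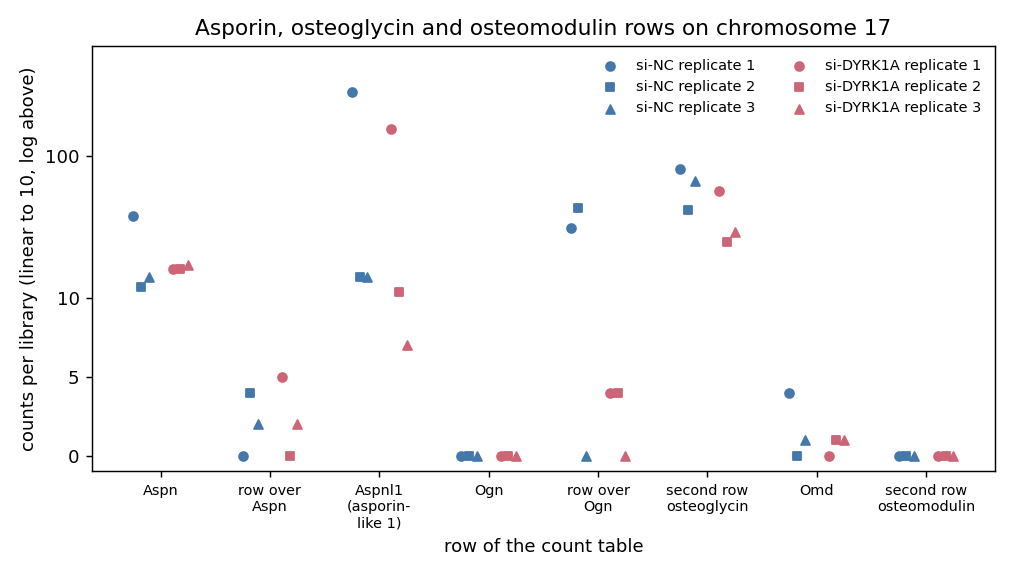
Counts per library, on an axis that is linear to 10 and logarithmic above, of the rows described as asporin, osteoglycin or osteomodulin and of the unannotated rows over Aspn and Ogn. Replicate 1 (circles) is high for Aspnl1 in both groups (284 and 156 counts), and the row named Ogn is at 0 in all 6 libraries.

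Compared per length in FPKM, the si-NC order was Bgn (1100), Lum (128), Prelp (35.8), Epyc (6.14), Dcn (3.64) and Aspn (1.26), and the libraries of neighbours in this order did not overlap. The rows named Omd, Fmod, Ogn and Kera followed at 0.0722 or less, with ranges that overlapped. The order of the first 6 was the same in si-DYRK1A, at 973, 191.5, 36.2, 16.4, 4.33 and 0.949 FPKM. Among the rows that bear a member's name, Bgn dominated, ranking 72nd of all rows in si-NC. Of the summed FPKM of all 10 members, Bgn made up 86.3% ± 0.995 in si-NC and 79.6% ± 0.213 in si-DYRK1A. Lum made up 10.1% ± 0.892 and 15.7% ± 0.451, and Epyc 0.483% ± 0.0476 and 1.34% ± 0.0286. The sum itself was 1275 ± 51.4 FPKM in si-NC and 1222 ± 16.5 in si-DYRK1A. This order and these shares use only the rows that bear a member's name. In si-NC the second osteoglycin row averaged 2.114 FPKM, the unannotated row over Ogn 0.786 and Aspnl1 4.175. The unannotated rows over Dcn and Fmod averaged 0.645 and 0.0591 FPKM in si-NC. How reads were divided between such rows is not given. The places and shares of decorin, fibromodulin, osteoglycin and asporin are therefore not settled.

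Beyond the 10 members, 8 lists of genes that make, modify, bind or accompany these proteoglycans were examined with the same edgeR fit, and all adjusted p-values are over all features. The median log2 fold change of all features was 0.002. The 8 further genes of the leucine-rich proteoglycan family, which include opticin (Optc), chondroadherin (Chad) and podocan (Podn), gave 6 fitted genes and no call, with a median of 0.03. Podn was at 235.4 ± 21.8 CPM in si-NC and 258.4 ± 3.02 in si-DYRK1A (edgeR adjusted p = 0.111). Podn was called when replicate 3 of si-NC was left out (log2 fold change 0.20, edgeR adjusted p = 0.00432).

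Of 28 genes of the linker and of chondroitin and dermatan sulfate synthesis, 17 were fitted, 3 fell and none rose (17.6% called, against 15.2% of all features, with a median of -0.04). Papss2, an enzyme that makes the sulfate donor, fell from 51.9 ± 2.25 to 42.3 ± 0.923 CPM (log2 fold change -0.29, SE 0.0701, edgeR adjusted p = 0.00568). Csgalnact2, which starts and extends chondroitin chains, fell by 0.23 on the log2 scale (edgeR adjusted p = 0.0228), but was not called when replicate 1 or 3 of si-NC, or 2 or 3 of si-DYRK1A, was left out (highest adjusted p 0.121). B3gat3, which completes the linker, fell by 0.17 (edgeR adjusted p = 0.0475) and was called in only 1 of the 6 fits that left out a library (highest adjusted p 0.232) and not by DESeq2. Of 12 keratan sulfate genes, 7 were fitted and 1 fell, B4galt4, a galactosyltransferase (19.9 ± 1.28 to 14.4 ± 1.12 CPM, log2 fold change -0.47, edgeR adjusted p = 0.0045), with 14.3% called and a median of -0.17. A further 8 genes of the first list and 3 of the second were at 0 in all libraries, each of them covered by an unannotated row.

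Of 27 collagen fibril genes in the table, 21 were fitted, 6 fell and none rose (28.6% called, against 15.2% of all features), with a median of -0.09. Pcolce, the enhancer of procollagen C-proteinase, fell from 1296 ± 16.3 to 987.8 ± 41.1 CPM (log2 fold change -0.39, SE 0.041, edgeR adjusted p = 6.87e-07). Col11a1, a chain of the fibril-nucleating collagen XI, fell from 495.2 ± 9.92 to 378.7 ± 19.5 CPM (log2 fold change -0.39, edgeR adjusted p = 2.98e-06). The lysyl hydroxylases Plod1 and Plod3 fell by 0.33 and 0.22 on the log2 scale (edgeR adjusted p = 7.81e-06 and 0.0012). Col14a1 and Col12a1, fibril-associated collagens, were at 0 and were covered by unannotated rows.

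Markers of other cell types moved between the same libraries. The endothelial marker list had a median of -0.37 and a summed level of 188.6 to 208.8 CPM in si-NC against 158.8 to 166.3 in si-DYRK1A. Of its 8 fitted markers, 3 were called lower (37.5%, against 15.2% of all features), and Flt1 was at 0. The log2 fold changes were -0.75 for Tek, -0.43 for Tie1 and -0.31 for Cdh5. The other 5 were not called, namely Egfl7 (-0.54), Vwf (-0.53), Kdr (-0.01), Emcn (0.03) and Esam (0.19). The epicardial and mesothelial list had a median of -0.33 and a summed level of 233.7 to 237.6 against 206.9 to 212.8 CPM. Of its 8 fitted markers, 5 were called lower (62.5%), and Tbx18 and Upk1b were at 0. The log2 fold changes of the 5 were -0.90 for Upk3b, -0.67 for Lrrn4, -0.40 for Krt19, -0.34 for Msln and -0.31 for Wt1. The other 3 stood higher and were not called, namely Krt8 (0.30), Krt18 (0.15) and Aldh1a2 (0.09). Of 9 fitted fibroblast markers (median 0.004, 44.4% called), Fbln1 (0.35) and Dpep1 (0.24) were called higher and Lamc3 (-0.66) and Pi16 (-0.39) lower. Of 10 fitted cardiomyocyte markers (50% called), Nppa (0.37), Tnni1 (0.36), Actn2 (0.31), Pln (0.15) and Actc1 (0.13) were called higher. The other 5 were not called, namely Nkx2-5 (0.14), Tnnc1 (0.04), Ckm (-0.05), Myl3 (-0.11) and Tnnt2 (-0.14). The smooth muscle and pericyte list summed to 2852 to 3099 against 2686 to 2821 CPM, with Myh11, Notch3, Abcc9, Acta2 and Lmod1 at 0 and 1 of 5 called lower (20%), Des (-0.15). Its others were not called, namely Kcnj8 (0.29), Cspg4 (0.13), Cnn1 (-0.01) and Tagln (-0.66). The macrophage list summed to 287.3 to 304.6 against 291.9 to 338.5 CPM, with Cd68 at 0 and 2 of 9 called higher (22.2%), Cd163 (0.87) and Lyz2 (0.41). The uncalled macrophage markers went both ways, namely C1qc (0.28), C1qa (0.15), C1qb (0.07), Csf1r (-0.13), Mrc1 (-0.19), Ptprc (-0.21) and Adgre1 (-0.54). The calls of Actc1, Pln, Cdh5, Dpep1, Lamc3, Pi16, Des, Cd163, Krt19, Msln and Wt1 were lost in at least 1 fit that left out a library, with a highest edgeR adjusted p from 0.0543 (Krt19, without si-DYRK1A replicate 1) to 0.217 (Pln, without si-NC replicate 1). The part of these cell types in the levels of the members and lists was not tested.

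**Figure D4:**
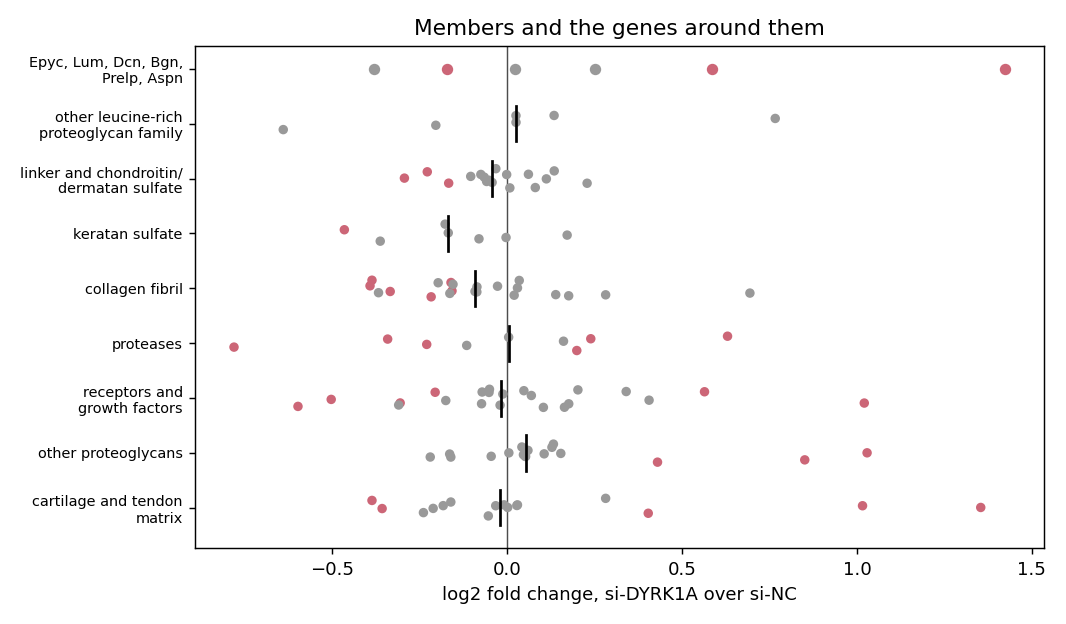
Log2 fold change of si-DYRK1A over si-NC for the 6 fitted members (top) and for each fitted gene of the 8 lists, with red points for genes called by edgeR, grey points for the others and a black bar at the median of each list. Points are spread vertically for sight. The called collagen fibril genes (6 of 21 fitted) all lie below 0. The called genes among the other proteoglycans (3 of 17 fitted, a share of 17.6% against 15.2% of all features) all lie above 0.

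Proteases that cut these proteoglycans moved in both directions. Of 18, 9 were fitted, 3 rose and 3 fell (66.7% called, against 15.2% of all features), and their median was 0.004. Adamts1 rose from 291.8 ± 12.3 to 451.6 ± 6.05 CPM (log2 fold change 0.63, SE 0.0437, edgeR adjusted p = 2.27e-09), whereas Adamts4 fell from 20.8 ± 1.97 to 12.1 ± 0.32 CPM (log2 fold change -0.78, edgeR adjusted p = 3.37e-05). Both are aggrecanases. Mmp9, a gelatinase, fell by 0.34 on the log2 scale (edgeR adjusted p = 0.00238), and Adamts15 rose by 0.24 (edgeR adjusted p = 0.00448). Mmp2, Mmp14, Bmp1 and Tll1 were at 0, each covered by an unannotated row.

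Among 33 receptors and growth factors bound by the family, 22 were fitted, 2 rose and 4 fell (27.3% called, against 15.2% of all features, median -0.02). Tgfb2, a ligand that decorin and biglycan bind, rose from 232.7 ± 12.1 to 344.1 ± 13.5 CPM (log2 fold change 0.56, SE 0.0477, edgeR adjusted p = 3.52e-08). Mstn, which codes for myostatin, another decorin ligand, rose from 3.29 ± 0.903 to 6.63 ± 0.535 CPM (log2 fold change 1.02, edgeR adjusted p = 0.00191). Erbb4, a receptor kinase, fell by 0.60 on the log2 scale (edgeR adjusted p = 0.00505), and Tlr4, a receptor of soluble biglycan, fell by 0.50 (edgeR adjusted p = 0.00215). Tgfb1 fell too, from 214.4 ± 14.9 to 185.8 ± 10.3 CPM (log2 fold change -0.21, edgeR adjusted p = 0.0131). Lrp1 fell from 3247 ± 238 to 2626 ± 62.2 CPM (log2 fold change -0.31, edgeR adjusted p = 1.11e-04).

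Of 28 other proteoglycans in the table, 17 were fitted, 3 rose and none fell, with a median of 0.05. The share called was 17.6%, near the 15.2% of all features. Esm1, the endothelial proteoglycan endocan, rose from 24.6 ± 0.379 to 50.1 ± 3.24 CPM (log2 fold change 1.03, SE 0.0791, edgeR adjusted p = 9.49e-09). Spock3, a testican, rose from 4.82 ± 0.983 to 8.74 ± 1.43 CPM (log2 fold change 0.85, edgeR adjusted p = 0.00335). Gpc2, a glypican, rose by 0.43 on the log2 scale (edgeR adjusted p = 0.0165), but was not called when replicate 1 or 2 of si-NC, or 2 or 3 of si-DYRK1A, was left out (highest adjusted p 0.148) or by DESeq2 (adjusted p = 0.0699). Epiphycan is best known from cartilage, and of 25 cartilage and tendon matrix genes found 16 were fitted, 3 rose and 2 fell (31.2% called, median -0.02). Tnmd, which codes for the tendon protein tenomodulin, rose from 2.92 ± 0.461 to 7.48 ± 1.16 CPM (log2 fold change 1.35, SE 0.205, edgeR adjusted p = 7.51e-05). Thbs4, a thrombospondin of tendon and heart, fell by 0.36 on the log2 scale (edgeR adjusted p = 0.00191), as did Col11a1 above. Col10a1, of hypertrophic cartilage, gave 1.44 ± 0.561 and 2.91 ± 0.707 CPM (log2 fold change 1.02, edgeR adjusted p = 0.0377), and Col9a3 gave 14.7 ± 1.37 and 19.4 ± 2.98 CPM (log2 fold change 0.40, edgeR adjusted p = 0.0269). Neither was called by DESeq2 (adjusted p = 0.134 and 0.1), and leaving out 1 library ended the call of Col10a1 in 5 of 6 fits, all but that without si-NC replicate 2, and that of Col9a3 in 4 of 6, those without replicates 2 or 3 of either group. The highest adjusted p values were 0.211 and 0.182, both without si-DYRK1A replicate 3.

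Calls among the genes around the members went in both directions. Within 1 Mb of a member lay 222 other features, of which 93 were fitted. Of these, 6 were called higher and 6 lower (12.9%, against 15.2% of all features), with a median log2 fold change of 0.009. On chromosome 7, Btg1, an antiproliferation gene, was the only neighbour of the Dcn to Epyc cluster that could be fitted. It rose from 201.9 ± 9.42 to 231.9 ± 5.82 CPM (log2 fold change 0.20, edgeR adjusted p = 0.00511), and was not called without si-NC replicate 1 (adjusted p = 0.0512). Near Bgn on chromosome X, Plxna3, a semaphorin receptor, fell by 0.44 on the log2 scale (edgeR adjusted p = 1.32e-04), Emd, which codes for emerin of the nuclear envelope, rose by 0.40 (edgeR adjusted p = 2.19e-04), and an unannotated row rose by 0.65 (edgeR adjusted p = 0.0102). Near Prelp and Fmod on chromosome 13, Ppp1r12b, a myosin phosphatase subunit, and an unannotated row that overlaps it on its strand, so that the pair are not independent features, rose by 0.41 and 0.45, and Cyb5r1 fell by 0.25 (edgeR adjusted p = 0.0013, 0.0101 and 0.0117). On chromosome 17, S1pr3, a sphingosine 1-phosphate receptor, fell by 0.29, Fgd3 by 0.34 and AC120310.1 by 0.66 (edgeR adjusted p = 0.00285, 0.0457 and 0.0411). Fgd3 was not called in any fit that left out a library (highest adjusted p 0.211, without si-DYRK1A replicate 1), and AC120310.1 was called in only 2 of those 6 fits, the ones that left out replicate 3 of si-NC or 1 of si-DYRK1A (highest adjusted p 0.183). Without si-NC replicate 1 the calls of Cyb5r1 and of both unannotated rows were lost too. So were those of Cyb5r1 and the row near Bgn without si-DYRK1A replicate 3 (adjusted p = 0.0798 and 0.0738), and that of the row near Prelp and Fmod without si-DYRK1A replicate 1 (adjusted p = 0.0964).

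Likeness of pattern was measured as Pearson's r of log2 CPM over the 6 libraries with each of 8191 annotated genes outside the family, as a description. Because these libraries fall into 2 groups, a high r says mostly that a gene shares the difference between them. The genes most like Epyc were Mcm5 (r = 0.9992, log2 fold change 0.36), Grem1 (r = 0.9978, 1.40), Nuak1, Fgf12 and Car3 (r = 0.9968 or more). Those most like Lum were Has2, a hyaluronan synthase (r = 0.9973, log2 fold change 0.97), Spp1, which codes for osteopontin (r = 0.9971, 0.38), LOC102553018, Manf and Cyp1b1 (r = 0.9942 or more). For Dcn they were RGD1562747 (r = 0.9841), Ky, Lhfpl1, Mrps33 and Iqub (r = 0.9729 or more). Over the deviations from the group means, which leave out the difference between groups, other genes came first. These were Ttf2, LOC100362176, Dmbt1, Epb41l4b and Arhgef16 for Epyc, Ddx19a, Rps27l, Gba2, Eif3j and Tsga10 for Lum, and Lrat, Cebpg, RGD1359634, Vat1l and Ncf4 for Dcn. No gene was named by both measures. With only 6 values per gene and 8191 genes compared, a high r of deviations can come from noise alone. The deviations of Epyc were no wider than the counting of reads gives, so nothing is read from these names.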

How the data were processed

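mRNA of 6 cultures was sequenced as paired-end reads, which the authors mapped to Rnor_6.0 with HISAT2. The authors deposited raw counts per gene, including unannotated rows, and FPKM values, which in the files equal counts over gene length times 1 constant per library. No source used here gives the counting tool, the annotation release or whether strand was used, and the submitters' processing notes list Bowtie 0.12.2 and mm8, which do not match the rat identifiers. Without strand, reads of a gene and of one on the opposite strand cannot be told apart, as for Ogn and Omd, which LOC679342 spans on the other strand. Splitting between rows can lower a gene's count.

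Groups came from the sample labels. Counts were fitted with edgeR 4.0.16 in R 4.3.3 (TMM, filterByExpr with a minimum count of 10, robust quasi-likelihood test, si-DYRK1A against si-NC, all 6 libraries, Benjamini-Hochberg over 15513 features, threshold 0.05), a fit tested on simulated data. CPM are counts scaled to library size after TMM. Intervals cover 95%. FPKM served only to compare levels between genes and as limma 3.58.1 alternatives, with DESeq2 1.42.0 as a further one. Libraries of a group differed by more than sampling noise (chi-square per degree of freedom 2.58 to 6.39). Promoters were read from RefSeq (GRCr8), and all gene coordinates are Rnor_6.0 as deposited.

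The members, the 8 pathway lists, the 6 cell type marker lists (243 of 253 symbols matched) and the naming rule were chosen with earlier results of these data known. Named were all members, from each list up to 4 called genes (log2 CPM averaging 1 or more) of largest absolute log2 fold change, or all called where a list had at most 5 calls, the 10 called neighbours with the largest change, and the 5 genes most correlated with Epyc, Lum and Dcn. Outside this rule, Podn, Tgfb1, Lrp1, Col1a1, Col3a1 and the uncalled endothelial, epicardial, cardiomyocyte, smooth muscle and macrophage markers were named to show both directions. Alternatives were other tests, scalings, filters and units, a replicate block, leaving out each library, and summed rows.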

Additional observations from a re-analysis of the deposited data

How the results depend on the processing

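Over 19 alternatives the log2 fold change stayed at 1.29 to 1.48 for Epyc (1.38 to 1.48 without single libraries), 0.544 to 0.613 for Lum, -0.209 to -0.134 for Bgn and 0.18 to 0.44 for Dcn. The value of 1.29 for Epyc came from both fits on log2(FPKM + 1), with and without the filter, a scale that understates changes of low genes, and 0.44 for Dcn from summing it with its unannotated row, also where second rows were summed (added after seeing the data). Aspn ranged from -0.695 to 0.414 when single libraries were left out, and Prelp kept its sign in 16 of 19. Against 2360 features, DESeq2 called 1546, limma on log2(FPKM + 1) 1199, on log2(FPKM + 0.1) 1180 and on log2(FPKM + 1) without filter 591, and fits without single libraries 1614 to 2210. In these 3 FPKM fits, in that order, the calls were 1, 1 and 0 of the linker and chondroitin list, 3, 3 and 2 of the proteases, 1, 1 and 1 of the other proteoglycans, 3, 3 and 2 of the cartilage and tendon genes, and 5, 5 and 1 of the neighbours. The last fit called 1 receptor or growth factor and 0 keratan sulfate genes. DESeq2 called 3 cartilage and tendon genes. Keratan sulfate calls were 2 with RLE, library size only, no filter, 10 counts in every library and the replicate block. Without single libraries, calls were 0 to 1 in the further family genes (1 without si-NC replicate 3), 1 to 2 in the linker and chondroitin list (1 when replicate 3 of si-NC, or 2 or 3 of si-DYRK1A, was left out), 1 to 2 in keratan sulfate (2 without si-DYRK1A replicate 3), 3 to 4 in cartilage and tendon (3 when replicate 3 of si-NC or 2 of si-DYRK1A was left out) and 5 to 13 in the neighbours (5 when replicate 1 of si-NC and 6 when replicate 3 of si-DYRK1A was left out). The cause was not tested. Over 901 fits of 53 called genes named by rule from the lists and neighbours, 725 kept the call, 176 lost it and 0 reversed. Over all fitted features, same-numbered libraries did not deviate together (r = 0.0578, -0.0261 and -0.00409), so the numbers were not treated as pairs. Single rows did go with the replicate number. Aspnl1 was high in replicate 1 of both groups, and the row over Ogn was at 0 in replicate 3 of both. Whether same-numbered cultures shared an origin was not tested. With the replicate block 2269 features were called, and Epyc stood at 1.42. Fmod, Omd and Kera held too few counts to compare, and the value for osteoglycin depends on which rows are summed.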
